A study of Homo sapiens with 12 samples.

Results

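Cancer-testis and germline genes are normally transcribed in the germ cells of testis or ovary and are silent in most adult tissues. The 38 genes described here were taken as a given list of symbols, chosen with earlier results of these data known. Every probe set annotated to exactly 1 of them was kept, whatever its brightness. All 38 had at least 1 probe set on the array, 48 probe sets in all of 54613 tested, and the 38 genes were among 19775 with a single-symbol probe set. Of the 38 genes, 14 lie on the X chromosome and 24 elsewhere. The cells were ML-2, a human acute myeloid leukaemia line, so all 12 arrays come from 1 cell line.

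Arrays were made in 4 groups of 3. The combination arrays came from cells given 2 µM SGI-110 for 24 h and then 5 µM ASTX660 for 9 h. The SGI-110 arrays came from cells given 2 µM SGI-110 and solvent in place of ASTX660, labelled as 33 h. The ASTX660 arrays came from cells given solvent first and then 5 µM ASTX660 for 9 h, and the solvent controls received solvent at both steps. The labels leave unstated whether SGI-110 was still present during the last 9 h. SGI-110, or guadecitabine, is a hypomethylating agent that releases decitabine, and ASTX660 is a small-molecule antagonist of inhibitor of apoptosis proteins. Each group holds the arrays numbered 2, 9 and 13, read here as experiment numbers, and the study states 3 independent experiments.

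Methylation of cytosines in CpG pairs near the transcription start is a known means by which somatic cells keep germline genes silent, and agents that deplete DNA methyltransferase can reactivate some of them. Decitabine acts this way after it is built into DNA. The MAGE proteins are a family that binds E3 ubiquitin ligases and includes targets of cancer immunotherapy. HORMAD1, the SYCP proteins, SPO11 and the cohesin subunits REC8, STAG3 and SMC1B serve meiotic chromosomes. MAEL, the PIWIL proteins, TDRD1 and DDX4 belong to the piRNA pathway and germ granules, which silence transposons in germ cells. DNA methylation was not measured on these arrays.

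Values are log2 intensities, and the median of all probe sets on an array, 4.69 to 4.77 over the 12 arrays, served as the background line. Levels were read without detection calls, so this line is a convention, and levels of different probe sets were not set against each other. Replicate arrays correlated at 0.996 to 0.998 and arrays of different groups at 0.993 to 0.998. Along principal component 1 (32.7% of the variance) the 6 arrays with SGI-110, at 12.4 and above, lay apart from the 6 without it, at -15.1 and below. On component 2 (14.7%) ASTX660 array 2 stood apart at 36.8, against 15.2 for the next highest array. Of 9 measured myeloid markers 7 had a probe set above the array median in all 12 arrays, among them MPO, LYZ and ELANE. KIT and ITGAM did not. The same held for 3 of 4 lymphoid, 0 of 1 erythroid and 2 of 5 fibroblast and epithelial markers. This count therefore does not separate myeloid from lymphoid cells. Of 5 measured markers of Sertoli and Leydig cells, the somatic cells of testis, it held for STAR and INSL3. With SGI-110, 0 of these 5 were called. With SGI-110, averaged over both ASTX660 settings, 6.24% of all probe sets rose and 5.41% fell. By any of their probe sets, 4 of the 9 myeloid markers rose and 0 fell. LYZ and ITGAM rose at 1 probe set each and not at their other probe set. The mean level of the myeloid list was 8.51 to 8.68 in combination arrays and 8.51 to 8.63 in SGI-110 arrays. It was 8.26 to 8.38 in ASTX660 arrays and 8.21 to 8.41 in solvent arrays. Of 5 fibroblast and epithelial markers 3 rose and 0 fell. KRT8 rose at 5.79 to 7.03, above the array median. COL1A1 and DCN rose at 1 probe set each, at 2.28 to 2.77 and 3.11 to 3.62, below the array median, and their other probe sets did not pass. The mean level of this list was 3.95 to 3.97 in combination arrays and 3.97 to 4.0 in SGI-110 arrays. It was 3.89 to 3.96 in ASTX660 arrays and 3.91 to 3.95 in solvent arrays. Of 4 lymphoid markers 1 rose (NKG7) and 1 fell (MS4A1, at 1 probe set with levels of 2.59 to 3.07). The part of these markers in the results that follow was not tested.

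Of the 48 probe sets, 38 were at or below the array median in all 12 arrays, and for 28 of the 38 genes this held for every probe set. Above the median in at least 3 arrays were 9 of the 48, against 28308 of all 54613 probe sets. The count of 38 depends on the line and was 20 with the 25th percentile of an array and 47 with the 75th. Another 6 probe sets were above the array median in all 12 arrays, and these belong to ACTL8, LUZP4, REC8, STAG3, PIWIL2 and PIWIL4. PAGE5 crossed the line in 2 arrays. The remaining 3 genes, MAEL, HORMAD1 and MAGEB2, were below the line in every ASTX660 and solvent array and above it in every combination and SGI-110 array. With the 75th percentile as the line, these 3 were at background in all 12 arrays too, and only PIWIL4 stood above it.

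Promoter sequence is shown for MAEL and MAGEB2, which rose, and for MAGEB1, which lies near MAGEB2 and stayed at background. RefSeq windows of the 250 bases before the start (GRCh38.p14) matched 30 of the 38 genes, with 45 windows in all, since some genes have several starts, and HORMAD1 was not among them. In the lines that follow every CpG is in capitals, and all 5 windows are on the plus strand.

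MAEL start 1, chr1:166975332-166975581: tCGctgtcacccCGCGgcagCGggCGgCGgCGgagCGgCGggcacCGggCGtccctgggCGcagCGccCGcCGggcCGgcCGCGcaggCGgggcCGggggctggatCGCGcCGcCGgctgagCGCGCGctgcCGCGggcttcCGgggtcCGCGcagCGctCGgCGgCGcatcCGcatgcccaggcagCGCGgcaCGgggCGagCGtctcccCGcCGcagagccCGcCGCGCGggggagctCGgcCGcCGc
MAEL start 2, chr1:166989030-166989279: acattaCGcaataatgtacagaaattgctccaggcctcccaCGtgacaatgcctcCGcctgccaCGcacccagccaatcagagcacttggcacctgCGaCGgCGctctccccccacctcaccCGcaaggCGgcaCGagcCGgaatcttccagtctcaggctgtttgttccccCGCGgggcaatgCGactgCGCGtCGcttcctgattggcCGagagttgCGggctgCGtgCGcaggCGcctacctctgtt
MAGEB2, chrX:30215313-30215562: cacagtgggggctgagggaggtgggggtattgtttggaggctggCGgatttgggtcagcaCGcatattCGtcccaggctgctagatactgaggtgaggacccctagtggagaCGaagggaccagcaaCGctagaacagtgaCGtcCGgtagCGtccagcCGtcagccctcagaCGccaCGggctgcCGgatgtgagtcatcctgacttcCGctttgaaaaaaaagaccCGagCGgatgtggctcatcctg
MAGEB1 start 1, chrX:30243481-30243730: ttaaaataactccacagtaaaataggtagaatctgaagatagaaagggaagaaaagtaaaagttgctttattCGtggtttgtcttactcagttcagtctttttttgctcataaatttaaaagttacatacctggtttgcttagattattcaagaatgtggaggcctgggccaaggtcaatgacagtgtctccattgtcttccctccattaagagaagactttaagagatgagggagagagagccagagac
MAGEB1 start 2, chrX:30246896-30247145: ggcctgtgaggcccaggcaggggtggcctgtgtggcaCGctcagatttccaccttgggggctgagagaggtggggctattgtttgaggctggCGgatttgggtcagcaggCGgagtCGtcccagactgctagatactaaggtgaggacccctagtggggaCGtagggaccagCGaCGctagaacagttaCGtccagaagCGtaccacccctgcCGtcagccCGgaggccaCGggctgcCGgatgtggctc

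The MAEL window at start 1 held 51 CpG pairs, more than 99.9% of the 35116 windows in the table, and the window at start 2 held 22. MAGEB2 had 15, while MAGEB1 had 1 at start 1 and 13 at start 2. The median was 13 over the 45 windows of the list and 11 over all windows, with quartiles of 3 and 23. The MAGEB2 window matched the MAGEB1 window at start 2 at 179 of 195 aligned bases (91.8%), and the one at start 1 at 139 of 196 (70.9%), with gaps left out. The identity that unrelated windows reach under this alignment was not measured, so 70.9% alone does not show relatedness. The start 2 window of MAGEB1 was the closer of its 2 windows to MAGEB2 in both CpG count and sequence.

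Among motifs linked to germline genes, the E-box CACGTG, which reads the same on both strands and is bound by MAX-type factors, was in 10 of the 45 windows (22.2%), against 6.34% of all windows. The E2F-type motif TCCCGC, searched on both strands, was in 10 of the 45 (22.2%), against 23.5% of all. MAEL start 2 held CACGTG, and neither MAGEB2 nor MAGEB1 held either motif. Windows of 1 gene can overlap, and the 10 with CACGTG came from 8 genes.

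MAEL, whose product helps piRNA-guided silencing of transposons, rose in both groups that received SGI-110. Its level was 5.64, 6.48 and 6.10 in the combination arrays (numbers 2, 9 and 13 in this order throughout), 5.53, 6.33 and 6.12 in the SGI-110 arrays, 3.83, 3.76 and 3.78 in the ASTX660 arrays, and 3.81, 3.51 and 4.09 in the solvent arrays. No array with SGI-110 overlapped an array without it. In bulk RNA, more transcript per cell and more cells with the transcript cannot be told apart. The means were 6.07 ± 0.42 in combination arrays, 5.99 ± 0.42 in SGI-110 arrays, 3.79 ± 0.04 in ASTX660 arrays and 3.80 ± 0.29 in solvent arrays (SD, n = 3 each).

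HORMAD1, which marks the axes of meiotic chromosomes before they synapse, followed the same order of groups. Its level was 4.89, 5.94 and 6.26 in the combination arrays, 5.01, 5.95 and 5.73 in the SGI-110 arrays, 3.42, 3.63 and 3.19 in the ASTX660 arrays, and 3.40, 3.67 and 3.63 in the solvent arrays. In both SGI-110-containing groups array 2 was the lowest, and it still lay above every array without SGI-110. The means were 5.70 ± 0.72 in combination arrays, 5.56 ± 0.49 in SGI-110 arrays, 3.41 ± 0.22 in ASTX660 arrays and 3.56 ± 0.15 in solvent arrays (SD, n = 3 each), with a wider spread in the groups given SGI-110.

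MAGEB2, an X-linked MAGE gene, was the only member of its family on the list to rise. Its level was 5.48, 5.97 and 5.51 in the combination arrays, 5.80, 6.08 and 5.75 in the SGI-110 arrays, 4.24, 4.24 and 3.66 in the ASTX660 arrays, and 3.97, 4.05 and 4.24 in the solvent arrays. Here too the arrays with and without SGI-110 did not overlap. The means were 5.65 ± 0.28 in combination arrays, 5.88 ± 0.17 in SGI-110 arrays, 4.05 ± 0.34 in ASTX660 arrays and 4.09 ± 0.14 in solvent arrays (SD, n = 3 each).

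**Figure D1:**
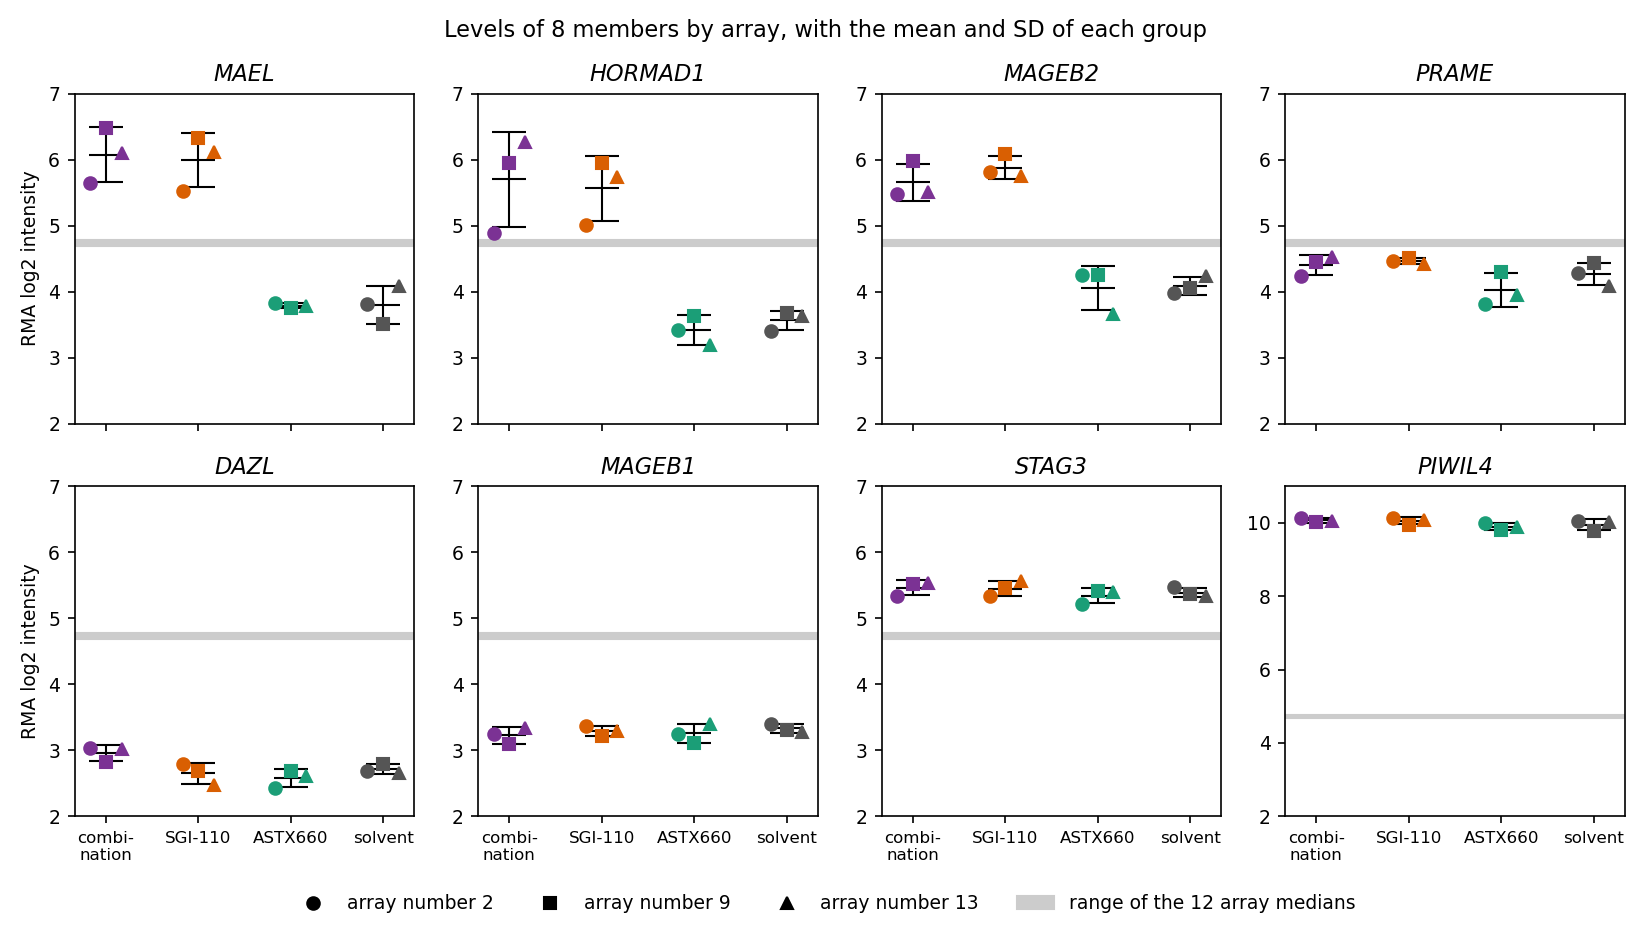
Log2 intensity (vertical axis) of 8 genes in each of the 12 arrays, by treatment group, with the mean and SD of each group and the range of the array medians as a grey band. MAEL, HORMAD1 and MAGEB2 lie above the band in all 6 arrays with SGI-110 and below it in the other 6, while MAGEB1, DAZL and PRAME stay below it and STAG3 and PIWIL4 above it throughout.

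Against solvent, SGI-110 alone raised 3 of the 48 probe sets and lowered 0 in limma (Benjamini-Hochberg adjusted p under 0.05 over all 54613 probe sets), where 2.98% of all probe sets rose and 1.66% fell. MAEL rose by 2.19 log2 units (SE 0.204, 4.57-fold, limma adjusted p = 6.88e-06), HORMAD1 by 2.00 (SE 0.270, 4.0-fold, adjusted p = 0.000273) and MAGEB2 by 1.79 (SE 0.160, 3.46-fold, adjusted p = 4.52e-06). By size of change they ranked 12, 15 and 23 among all probe sets. Within each experiment number the SGI-110 minus solvent difference was 1.72, 2.82 and 2.03 for MAEL, 1.61, 2.29 and 2.10 for HORMAD1, and 1.83, 2.03 and 1.51 for MAGEB2. The other 45 probe sets had differences of -0.28 to 0.20 and did not pass, and the 95% interval of each stayed within a 1.5-fold change. The median over the 48 was -0.02, against -0.01 over all probe sets.

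With the experiment number as a block, DPPA2, a gene of pluripotent and early germ cells, also passed as lower (-0.28, limma adjusted p = 0.0305, against 0.106 without the block), among 5.36% of all probe sets higher and 3.48% lower. Its level was 2.90, 2.64 and 2.64 in SGI-110 arrays and 3.07, 3.00 and 2.95 in solvent arrays, below the array median in all of them.

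The combination raised the same 3 genes against solvent and lowered 0, with 4.26% of all probe sets higher and 1.78% lower. MAEL rose by 2.27 log2 units (4.84-fold, limma adjusted p = 4.33e-06), HORMAD1 by 2.13 (4.39-fold, adjusted p = 0.000143) and MAGEB2 by 1.57 (2.96-fold, adjusted p = 1.53e-05). The comparison uses the same solvent arrays as the one for SGI-110 alone, so the 2 are not separate tests. The other 45 had differences of -0.33 to 0.25 and did not pass.

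Against ASTX660 alone, a comparison that shares the combination arrays but not the solvent arrays, the combination raised 4 of the 48 probe sets and lowered 0, with 2.9% of all probe sets higher and 2.46% lower. MAEL rose by 2.29 (4.88-fold, limma adjusted p = 4.78e-06), HORMAD1 by 2.28 (4.87-fold, adjusted p = 8.82e-05) and MAGEB2 by 1.60 (3.04-fold, adjusted p = 1.67e-05). The fourth was DAZL, an RNA-binding protein gene of germ cells, at levels below the array median in all 12 arrays. DAZL measured 3.04, 2.82 and 3.02 in combination arrays and 2.42, 2.69 and 2.62 in ASTX660 arrays, a change of 0.39 (1.31-fold, limma adjusted p = 0.0245). That call was lost without ASTX660 array 2 (adjusted p = 0.101), without combination array 2 (0.103) or without combination array 13 (0.0939). In SGI-110 arrays DAZL measured 2.79, 2.69 and 2.48, against 2.69, 2.79 and 2.65 in solvent arrays, which overlap.

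ASTX660 alone raised 0 and lowered 0 of the 48 probe sets against solvent in limma, as it did over all probe sets (0% in each direction). At an unadjusted p under 0.05 there were 5 probe sets of the list and 4324 of all. The differences were -0.01 for MAEL, -0.15 for HORMAD1 and -0.04 for MAGEB2, with 95% intervals of -0.44 to 0.42, -0.72 to 0.42 and -0.37 to 0.30. Arrays did not overlap for 7 probe sets of the list, all lower with ASTX660, at MAGEC3, PASD1, DDX4, DPPA2, TEX15 and, by 2 probe sets, SSX3, where 6.49% of all probe sets were lower in this way and 6.54% higher. Their differences were -0.33 to -0.09, none passed, and all lie below the array median.

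Adding ASTX660 to SGI-110 gave 0 calls in the list and over all probe sets (0% in each direction), with 4 probe sets of the list and 2222 of all at an unadjusted p under 0.05. MAEL differed by 0.08 (95% interval -0.35 to 0.51), HORMAD1 by 0.13 (-0.44 to 0.70) and MAGEB2 by -0.23 (-0.56 to 0.11) between the combination and SGI-110 arrays. These intervals leave room for a change of up to about 1.5-fold in MAEL and MAGEB2 and more in HORMAD1. The interaction, the part of the combination change that the single agents did not add up to, also gave 0 calls (0% in each direction), with 2 probe sets of the list and 1720 of all at an unadjusted p under 0.05. It was 0.10 for MAEL (-0.51 to 0.70), 0.28 for HORMAD1 (-0.52 to 1.09) and -0.19 for MAGEB2 (-0.67 to 0.29).

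**Figure D2:**
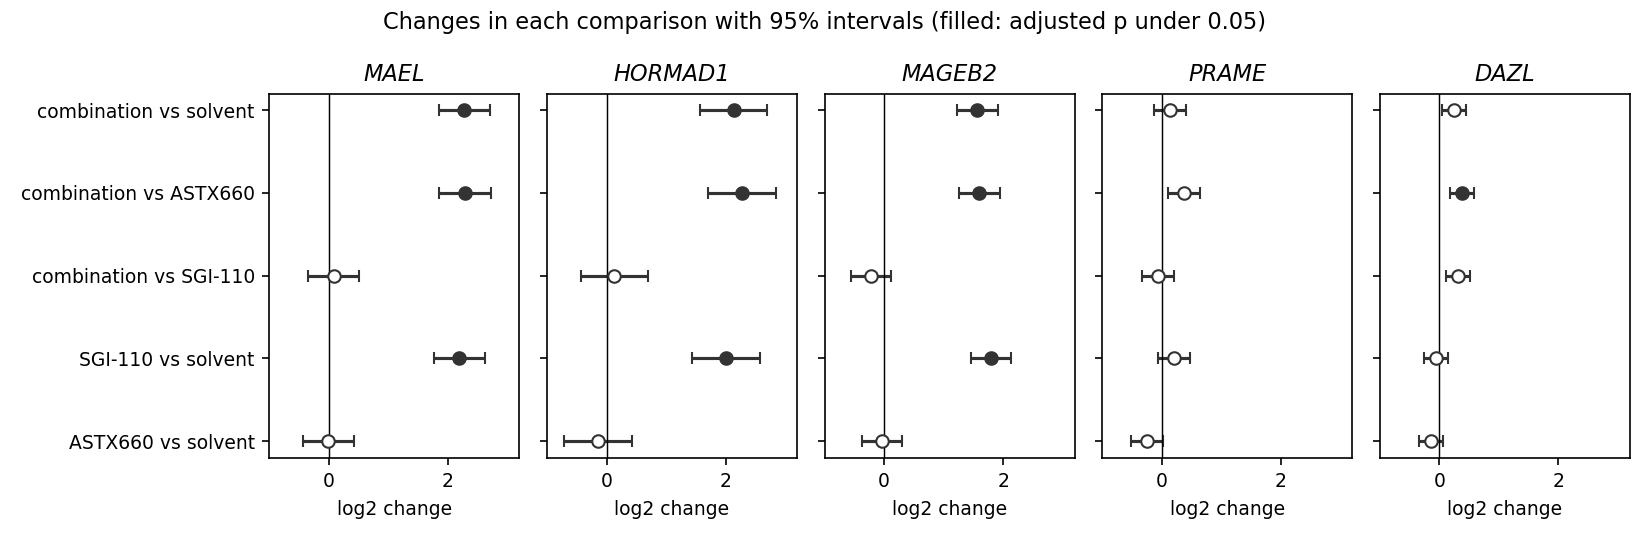
Log2 change (horizontal axis) with 95% interval of 5 genes in each of 5 comparisons, filled where the limma adjusted p was under 0.05. MAEL, HORMAD1 and MAGEB2 lie between 1.57 and 2.29 in the 3 comparisons that add SGI-110, and their intervals cover 0 in the 2 that add ASTX660 alone.

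The effect of SGI-110 averaged over both ASTX660 settings, 6 arrays against 6, has the smallest errors. It raised 4 of the 48 probe sets and lowered 0, where 6.24% of all probe sets rose and 5.41% fell. MAEL rose by 2.24 (4.72-fold, limma adjusted p = 3.1e-08), HORMAD1 by 2.14 (4.41-fold, adjusted p = 1.2e-06) and MAGEB2 by 1.70 (3.24-fold, adjusted p = 4.86e-08), which ranked 8, 13 and 29 among all probe sets. The arrays did not overlap for these 3 and for none of the other 45, where 3.71% of all probe sets were higher without overlap and 3.5% lower. The other 44 probe sets had differences of -0.15 to 0.16 and did not pass, and every 95% interval stayed within a 1.5-fold change.

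The fourth call was PRAME, a cancer-testis antigen known from leukaemia and melanoma and a receptor of a ubiquitin ligase, with a change of 0.29 (SE 0.0895, 1.22-fold, limma adjusted p = 0.0432). It measured 4.23, 4.45 and 4.52 in combination arrays, 4.47, 4.51 and 4.42 in SGI-110 arrays, 3.81, 4.30 and 3.95 in ASTX660 arrays, and 4.28, 4.43 and 4.09 in solvent arrays. All 12 values are below the array median, and arrays with and without SGI-110 overlap. The call was lost when any 1 of 9 of the 12 arrays was left out (adjusted p 0.0635 to 0.116), the exceptions being ASTX660 array 9, combination array 2 and solvent array 9. In the single comparisons the PRAME difference was 0.20 between SGI-110 and solvent arrays (limma adjusted p = 0.523) and 0.14 between combination and solvent arrays (0.598).

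**Figure D3:**
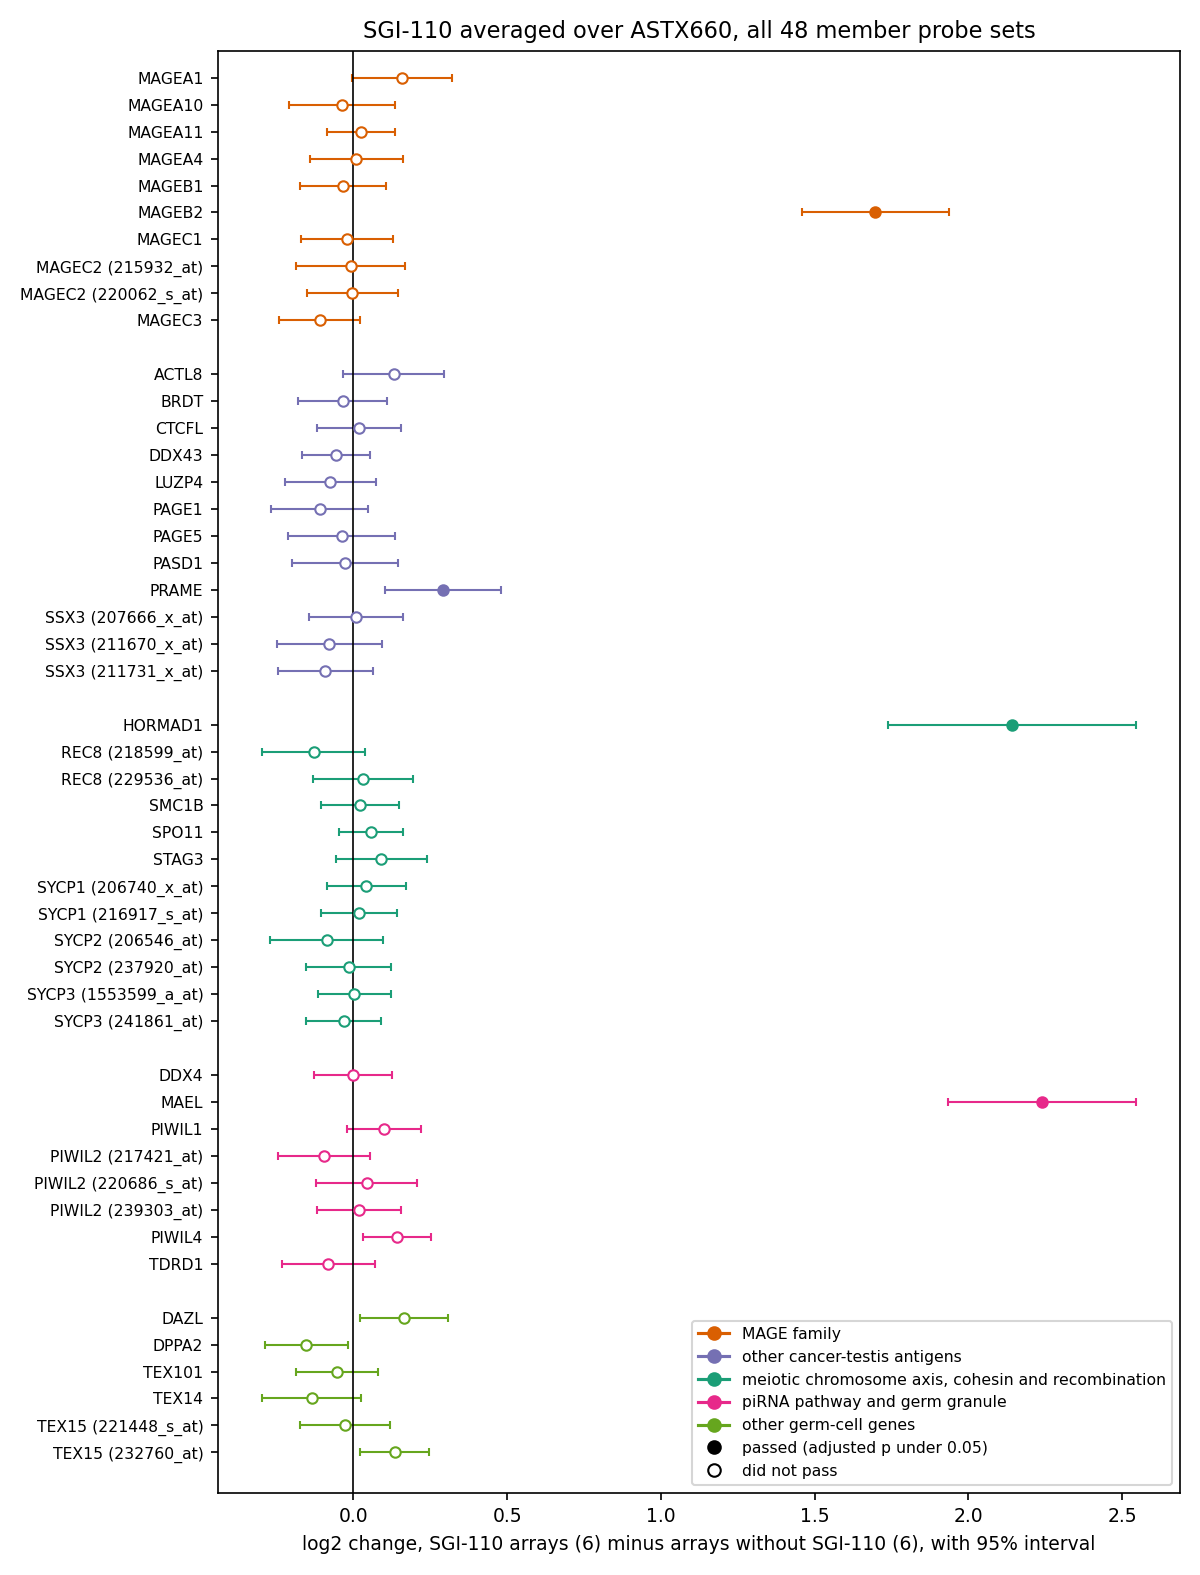
Log2 change (horizontal axis) of all 48 probe sets between the 6 arrays with SGI-110 and the 6 without, with 95% intervals, grouped and coloured by role and filled where the limma adjusted p was under 0.05. MAGEB2, HORMAD1 and MAEL stand between 1.70 and 2.24, PRAME at 0.29, and the other 44 within 0.16 of 0.

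By role, the MAGE family had 9 genes on the list, all X-linked, with 10 probe sets. Apart from MAGEB2, the 9 probe sets of MAGEA1, MAGEA4, MAGEA10, MAGEA11, MAGEB1, MAGEC1, MAGEC2 and MAGEC3 were at background throughout, with differences of -0.11 to 0.16 for SGI-110. MAGEB1 measured 3.24, 3.09 and 3.34 in combination arrays, 3.37, 3.22 and 3.29 in SGI-110 arrays, 3.25, 3.11 and 3.40 in ASTX660 arrays, and 3.41, 3.31 and 3.28 in solvent arrays, with a difference of -0.03 (95% interval -0.17 to 0.11). MAGEB2, MAGEB3, MAGEB4 and MAGEB1 are neighbours on the X chromosome in the RefSeq table (GRCh38.p14). The difference was -0.06 for MAGEB3 and -0.05 and -0.07 for the 2 probe sets of MAGEB4, and none passed. These neighbours were chosen after the values were seen.

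Of the 10 other cancer-testis antigens on the list, ACTL8, an actin-like gene, and LUZP4, an mRNA export factor of testis, lay above the array median in every array. ACTL8 measured 6.25, 6.02 and 5.96 in combination arrays, 6.04, 5.92 and 5.92 in SGI-110 arrays, 5.69, 5.66 and 6.02 in ASTX660 arrays, and 5.97, 6.07 and 5.92 in solvent arrays. LUZP4 measured 4.95, 5.16 and 5.07 in combination arrays, 5.17, 5.27 and 5.10 in SGI-110 arrays, 4.95, 5.22 and 5.13 in ASTX660 arrays, and 5.22, 5.33 and 5.31 in solvent arrays. Neither passed in any comparison. The 9 probe sets at background throughout belong to BRDT, the testis bromodomain protein, CTCFL, the germline paralogue of CTCF, DDX43, PAGE1, PASD1, SSX3 and PRAME, and PAGE5 measured between 4.42 and 4.85. SSX genes are near-identical copies, so the 3 SSX3 probe sets may read relatives. A pair of probe sets naming SSX3 with other SSX genes was left out (3.91 to 4.38 and 4.28 to 4.91), and neither passed.

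Among the 8 genes of meiotic chromosomes, HORMAD1 was the only one to pass. STAG3, a meiotic cohesin subunit, measured 5.33, 5.52 and 5.53 in combination arrays, 5.34, 5.46 and 5.56 in SGI-110 arrays, 5.21, 5.42 and 5.40 in ASTX660 arrays, and 5.47, 5.37 and 5.33 in solvent arrays. REC8, the cohesin subunit that holds sister chromatids in meiosis, measured 5.74, 5.95 and 5.87 in combination arrays, 5.98, 5.85 and 5.90 in SGI-110 arrays, 6.34, 6.10 and 5.84 in ASTX660 arrays, and 5.91, 5.88 and 6.01 in solvent arrays by its brighter probe set. Its other probe set, at 3.58 to 4.0, was at background. SYCP1, SYCP2 and SYCP3, which build the synaptonemal complex, SPO11, which makes the meiotic double-strand breaks, and SMC1B were at background in all 12 arrays by every probe set. Over the 11 probe sets other than that of HORMAD1 the difference for SGI-110 was -0.13 to 0.09.

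Of the 6 piRNA and germ-granule genes, MAEL passed. PIWIL4 had strong signal in all arrays, at 10.14, 10.03 and 10.05 in combination arrays, 10.13, 9.95 and 10.09 in SGI-110 arrays, 9.99, 9.81 and 9.88 in ASTX660 arrays, and 10.04, 9.78 and 10.03 in solvent arrays. Its difference for SGI-110 was 0.14 (1.10-fold, limma adjusted p = 0.0969), and the arrays overlap. PIWIL2 measured 4.89 to 5.35 by 1 probe set, above the array median in all arrays, and was at background by the other 2. PIWIL1, TDRD1 and DDX4, a germ-cell RNA helicase also called VASA, were at background throughout. The 6 probe sets of DAZL, DPPA2, TEX14, TEX15 and TEX101 were at background throughout too and did not pass, with differences of -0.15 to 0.16.

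Genes outside the list were grouped from general knowledge. Of 41 measured other cancer-testis genes, 4 rose and 4 fell with SGI-110 over both ASTX660 settings, and 33 did not pass, with 8.47% of their 59 probe sets higher and 6.78% lower, against 6.24% and 5.41% of all probe sets. TKTL1, a transketolase-like gene on the X chromosome, rose by 4.0 (16-fold, limma adjusted p = 6.45e-11) and by 2.22 at its other probe set. By its first probe set it measured 7.88, 7.67 and 8.40 in combination arrays and 7.73, 7.75 and 8.59 in SGI-110 arrays, against 3.72, 4.05 and 3.64 in ASTX660 arrays and 4.55, 4.19 and 3.86 in solvent arrays. MAGEA6 rose by 0.57 (adjusted p = 0.00256) while at background in all 12 arrays, and its probe set may read other MAGEA genes. ATAD2 rose by 0.14 at 1 of 4 probe sets. The mitotic genes TTK and NUF2 fell by 0.31 and 0.27, and TFDP3 fell by 0.28 while above the array median in only 2 of the 12 arrays. At background in every array, by every probe set, were 22 of the 41 genes.

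Of 33 measured other meiosis genes, 2 rose and 4 fell, and 27 did not pass, with 3.64% of 55 probe sets higher and 7.27% lower (6.24% and 5.41% over all probe sets). CCNB1IP1, a crossover factor also used in the mitotic cycle, fell by 0.39 (limma adjusted p = 6.3e-06), PSMC3IP, a partner of meiotic recombinases, rose by 0.29 at 1 of 2 probe sets, and MND1, which acts with it, fell by 0.24. TOP6BL, a partner of SPO11, rose by 0.40 at 1 of 2 probe sets while at background. SUN1, which tethers telomeres in the nuclear envelope, fell by 0.25 at 1 of 4 probe sets, and SHLD2, a shieldin subunit of DNA repair, fell by 0.15. Of 52 other piRNA and germ-cell genes, 6 rose and 1 fell, and 45 did not pass, with 7.69% of 78 probe sets higher and 1.28% lower (6.24% and 5.41% over all). PRDM1, a regulator of germ-cell specification that also directs lymphoid and myeloid maturation, rose by 0.87 at 1 of 3 probe sets (adjusted p = 3.15e-06). MYBL1 rose by 0.47 at 1 of 3, the piRNA helicase gene TDRD9 by 0.51 while at background, and TEX19 by 0.38. TDRKH rose by 0.33 at 1 of 3 probe sets, and TDRD3 fell by 0.23 at 1 of 3.

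Of 24 measured somatic relatives of the list, 1 rose, 2 fell and 21 did not pass, with 3.51% of 57 probe sets higher and 5.26% lower (6.24% and 5.41% over all). MAGED2, a MAGE gene used outside the germline, rose by 0.27 and 0.26 at its 2 probe sets, and of the somatic cohesin genes RAD21 fell by 0.22 at 1 of 2 probe sets and STAG1 by 0.31 and 0.19 at 2 of 3. The third STAG1 probe set, at background, had a difference of 0.20 and did not pass. Of 27 genes for repressors of germline genes, 7 rose, 4 fell and 16 did not pass, with 16% of 75 probe sets higher and 5.33% lower (6.24% and 5.41% over all). Several of the higher probe sets read the same gene. Only 6 of the 75 were at background throughout, while 28308 of all 54613 lay above the median in at least 3 arrays. The 16% was therefore not set against probe sets of like brightness. EHMT1, a histone H3 lysine methyltransferase, fell by 0.41 at 1 of 3 probe sets (limma adjusted p = 9.62e-05). ATF7IP, a partner of SETDB1, rose by 0.27 at 1 of 4 probe sets, the chromatin remodeller HELLS by 0.28 at 1 of 5, and MBD4 by 0.19 to 0.27 at 3 of 4 probe sets. RING1 rose by 0.24 at both of its probe sets, and RYBP by 0.24 to 0.34 at 3 of 4. No member of any of the 5 lists was called between ASTX660 and solvent arrays or between combination and SGI-110 arrays. No probe set of the whole array was called there either (0% in each direction), so this is not particular to the lists.

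**Figure D4:**
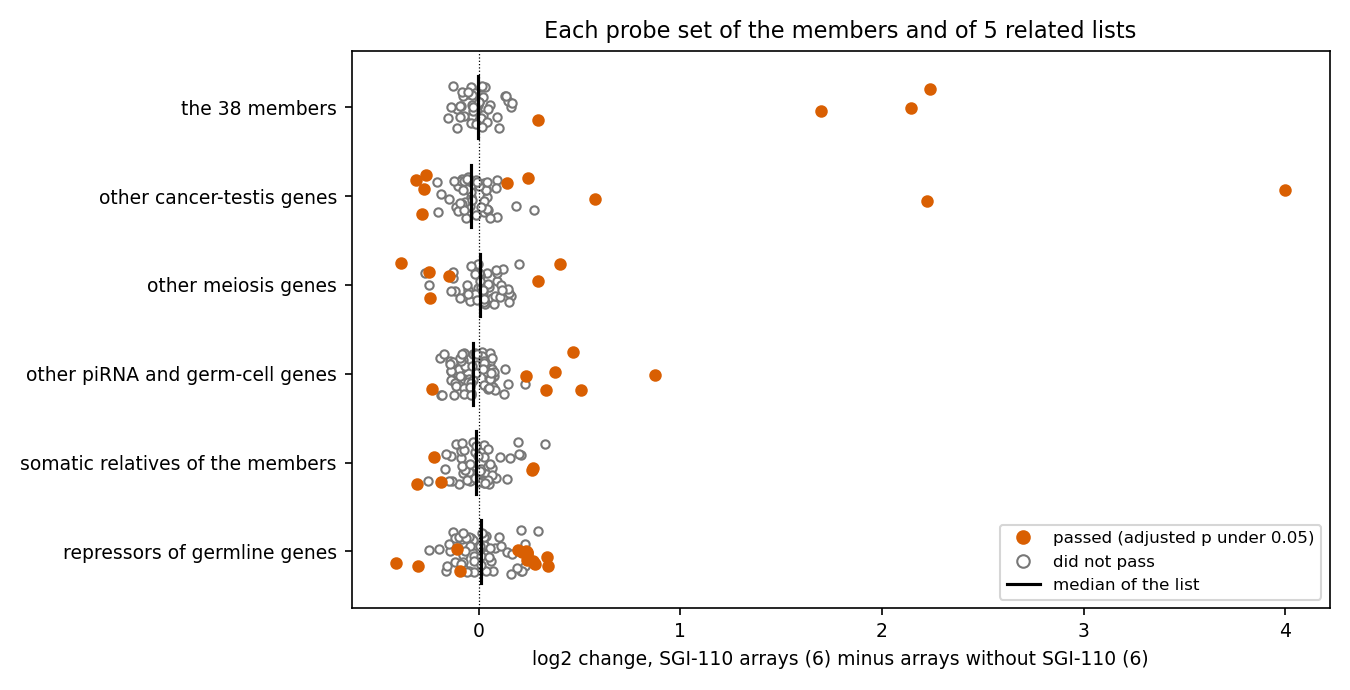
Log2 change with SGI-110 (horizontal axis, 6 arrays with it minus 6 without) of each probe set of the 38 genes and of 5 related lists, filled where the limma adjusted p was under 0.05, with a line at each list's median. The medians lie near 0, and the 3 genes of the list and TKTL1 stand apart to the right, with TKTL1 at 4.0 and 2.22.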

How the data were processed

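Total RNA of 12 ML-2 cultures was hybridised to Affymetrix arrays, with cRNA made from 100 ng and labelled with biotin, per the labels' protocols. The deposited values are log2 intensities made by the authors with RMA in the affy package, per the submitters' processing notes, which name no version. Normalization across arrays was part of that step, and nothing further was done before the tests. The table holds 54675 probe sets. After 62 control probe sets were removed, 54613 were tested.

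Probe sets were named from the platform annotation, which lists 42898 of them, 41097 with 1 gene and 1801 with several. No symbol needed updating. The model was fitted in limma 3.58.1 (R 4.3.3), with 4 group means, moderated variances with an intensity trend, 8 residual degrees of freedom, and Benjamini-Hochberg adjustment over all probe sets in each of 7 contrasts. A probe set was called at an adjusted p under 0.05. Confidence intervals are 95% intervals from the same fit. The median standard error was 0.0986 log2 units for SGI-110 against solvent. The number of arrays, 3 per group, limits the precision. The procedure was tested on simulated data.

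The 38 genes, the 5 lists, the marker lists and the rules were chosen with earlier results of these data known. Genes were named in full where a probe set was called in any contrast or lay above the array median in all arrays of a group, and up to 6 called genes per list were named by adjusted p.

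Deviations from the group means correlated above 0.1 for every number between SGI-110 and solvent arrays (0.200, 0.168 and 0.365) and between ASTX660 and solvent arrays (0.223, 0.264 and 0.349), which meets the rule for numbers that pair samples. The model reported is without the block, and blocked values are given where they change a call. In comparisons with the combination this did not hold for every number. Alternatives were the replicate block, median centring, quantile normalization, a brightness filter, no variance trend, 1 probe set per gene, each array left out, and other background lines. RMA compresses ratios at low intensity, so a fold from a level below the array median is an array ratio and not a ratio of transcripts.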

Additional observations from a re-analysis of the deposited data

Results flagged for a closer look

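DDX4, a germ-cell RNA helicase gene read by 1 probe set, was singled out for the sign of its differences. With SGI-110 they had opposite signs without and with ASTX660 in every experiment number. All 48 listed probe sets were scanned for such a pattern, and how often it occurs over all probe sets was not counted. SGI-110 minus solvent was -0.07, -0.14 and -0.09 in numbers 2, 9 and 13, and combination minus ASTX660 was 0.12, 0.04 and 0.14. The fitted interaction was 0.20 log2 units and did not pass in limma, and DDX4 was called in no comparison. The levels, 3.34 to 3.61, were below the array median in all 12 arrays.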

How the results depend on the processing

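MAEL, HORMAD1 and MAGEB2 stayed called, in the same direction, in SGI-110 and combination against solvent, combination against ASTX660 and SGI-110 averaged, under every alternative run. They passed the brightness filter only through arrays with SGI-110, so their calls under that setting add no support. With 1 array left out, SGI-110 against solvent gave 2.02 to 2.42 for MAEL, 1.80 to 2.28 for HORMAD1 and 1.69 to 1.87 for MAGEB2. With 1 array left out, counts of listed probe sets called higher were 3 to 3 for SGI-110 and for combination against solvent, 3 to 5 for combination against ASTX660 and 3 to 4 averaged, and 0 to 1 were called lower for SGI-110 against solvent (1 without SGI-110 array 2). Under the other settings these counts higher reached 6 for combination against ASTX660 and 5 averaged, both with the block.

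Uncalled values near 0 changed sign. ASTX660 against solvent was 0.014 for MAEL with median centring and 0.028 with quantile normalization, and 0.0017 for MAGEB2 with quantile normalization. With 1 array left out it was -0.16 to 0.13 for MAEL and -0.13 to 0.16 for MAGEB2. DAZL for SGI-110 against solvent was -0.13 to 0.030. Combination against SGI-110 was -0.15 to 0.30 for MAEL and -0.15 to 0.54 for HORMAD1, and the interaction was -0.14 to 0.31 for MAEL. The cause was not tested.

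With the replicate block, 1 listed probe set was called lower for SGI-110 against solvent (DPPA2) and 1 for combination against solvent (SSX3, -0.33, limma adjusted p = 0.0406, against 0.0730 without the block). The block also called PRAME (0.0343, against 0.0998 without) and PIWIL4 (0.0195) higher in combination against ASTX660, and PIWIL4 averaged (0.0047). It changed no other call in the list. Over all probe sets the block gave 2927 higher and 1899 lower for SGI-110 against solvent, against 1629 and 907. For combination against solvent it gave 4012 and 2022, against 2328 and 974, and for combination against ASTX660 2952 and 2752, against 1583 and 1344. It called 14 of all probe sets for combination against SGI-110 and 1 for ASTX660 against solvent. In comparisons with the combination the samples share only a number, and 27 of 36 matches of an array to another group were best with its own number.

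With 1 array left out, all probe sets higher and lower for SGI-110 against solvent were 913 to 1907 and 420 to 1136, for combination against solvent 1304 to 2820 and 498 to 1277, and for combination against ASTX660 932 to 1677 and 681 to 1341. The share of calls higher for combination against solvent was 70.5%, against 81.1% with median centring and 59.7% with quantile normalization. Scaling moved the median of all probe sets by at most 0.0288. Without the variance trend 509 were lower for SGI-110 against solvent, and PRAME averaged was lost (limma adjusted p = 0.050). With 1 probe set per gene, counts higher and lower were 979 and 850 for combination against ASTX660 and 1947 and 1662 averaged (3406 and 2955 over all probe sets), and 1414 higher for combination against solvent, where fewer were tested. Lower for combination against solvent were 577 with median centring and 1462 with quantile normalization. Among repressors, 20 of 75 probe sets rose averaged with the block, where 8.83% of all probe sets rose. Without the block it was 12 of 75, where 6.24% of all rose. With 1 probe set per gene, 6 of the 27 repressor genes rose, where 1947 of all 19775 genes rose.

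At background in all arrays were 20 listed probe sets with the 25th percentile as the line and 47 with the 75th, against 38 with the median.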
